A study of Mus musculus with 9 samples.

Results

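Hippo pathway effectors, their DNA-binding partners and their target genes were examined in SIX2 progenitors, the mesenchymal cells that cap the tips of the ureteric bud and form the nephron. The 10 genes were taken by symbol from the read counts of 26858 genes: *Yap1* and *Wwtr1*, which encode the coactivators YAP and TAZ, *Tead1* to *Tead4*, and the target genes *Ctgf*, *Cyr61*, *Amotl2* and *Ankrd1*. The table uses the older names *Ctgf* and *Cyr61* for the genes now called *Ccn2* and *Ccn1*. Of these 10 genes, 9 passed the filter on low counts and were tested, and *Ankrd1* did not.

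Cells were sorted for eGFP at E18.5, late in gestation, from kidneys in which a *Six2* promoter transgene drives Cre recombinase fused to eGFP. The control group was heterozygous *Six2-Qpc*+/- (n = 4 libraries) and the mutant group was *Six2-Qpc*-/- (n = 5 libraries), in which both floxed alleles of *Uqcrq*, the gene of complex III subunit QPC, are targets of Cre. All 9 libraries therefore come from cells that carry the Cre transgene and at least 1 targeted *Qpc* allele, and there is no Cre-negative group. The paper reports a lower share of eGFP-positive cells in mutant kidneys. It could not fully exclude that the control sort took in differentiating cells with low GFP. It also reports lower *Wnt4* and *Lhx1*, genes of nascent nephrons, in the sorted mutant cells. The part of such cells in the values here was not tested. The labels name no litter, sex or pooling, so p-values measure the spread between these samples.

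In the Hippo pathway, the kinases MST1 and MST2 with SAV1 activate LATS1 and LATS2 with MOB1, and the LATS kinases phosphorylate YAP and TAZ, which are then held in the cytoplasm or degraded. Unphosphorylated YAP and TAZ enter the nucleus and, since they do not bind DNA themselves, act through TEAD transcription factors on genes such as those of CCN1 and CCN2. YAP and TAZ are needed for normal nephron formation in the mouse, and their activity is set largely by phosphorylation and location, which read counts do not measure.

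Library totals ranged from 21040536 to 23986458 counts. *Uqcrq*, the targeted gene, had 76.8 to 107 CPM (counts per 1000000 of a library's TMM-normalized total) in control and 16.5 to 28.2 CPM in mutant libraries, a log2 change, mutant against control, of −2.14 (standard error, SE, 0.16). All 11 progenitor markers, *Six2* and *Cited1* among them, were tested and none passed the threshold between genotypes. At an unadjusted p-value under 0.05, 3 of them differed, in both directions. *Six2* was higher (log2 change 0.30, mean 570.8 CPM in control and 703.9 CPM in mutant libraries). *Crym* (−0.42, 571.1 and 427.2 CPM) and *Pax2* (−0.55) were lower. The summed level of the 11 markers was 2338 to 2845 CPM in control and 2335 to 2803 CPM in mutant libraries. Opposite changes offset each other in this sum. Markers of other cells moved with genotype. Stromal markers summed to 132.8 to 210.7 CPM in control and 305.4 to 835.1 CPM in mutant libraries, with 7 of 11 tested genes higher and none lower. The stromal marker *Pdgfrb* was fitted lower (log2 change −0.51), and it passed the threshold as lower under limma-voom. Macrophage markers summed to 5.05 ± 5.73 CPM (SD, n = 4) and 54.5 ± 43.4 CPM (SD, n = 5), with 2 of 6 tested genes higher. Over all tested genes 7.82% were higher and 7.02% lower. Of 4 tested endothelial markers *Pecam1* was higher and *Plvap* lower. No ureteric bud (4 tested), erythroid (1 tested), podocyte or tubule (4 tested) marker passed the threshold, and the other markers of these lists had too few counts. At an unadjusted p-value under 0.05, the ureteric bud markers *Wnt11* and *Hoxb7* were lower and *Calb1* higher, and 1 podocyte or tubule marker was higher. In RNA from sorted cells, a change in the share of a cell type and a change in RNA per cell cannot be told apart.

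Of the 9 genes tested, *Wwtr1* rose in mutant cells and no gene fell, although *Cyr61* and *Amotl2* were lower at an unadjusted p-value under 0.05 and under limma-voom, and *Amotl2* under DESeq2. Over all 14990 genes tested, 14.8% had an adjusted p-value under 0.05 (edgeR quasi-likelihood test with Benjamini-Hochberg adjustment, used for every adjusted p-value given for a gene), with 7.82% higher and 7.02% lower, so 1 gene of 9 is near the background. The median log2 change was 0.22 for the 9 genes and −0.01 for all genes tested. The effectors and TEAD genes all had fitted values above 0, and the tested target genes *Ctgf*, *Cyr61* and *Amotl2* all had fitted values below 0. Over all 14990 genes tested, 7376 were fitted above 0 and 7614 below. *Tead2*, at 0.04, changed sign in 2 alternative fits and *Tead4* in 1. In the further list of targets given below, 10 of 17 tested genes were fitted above 0 and 7 below. No common direction of YAP and TAZ targets is therefore read from these signs.

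**Figure D1:**
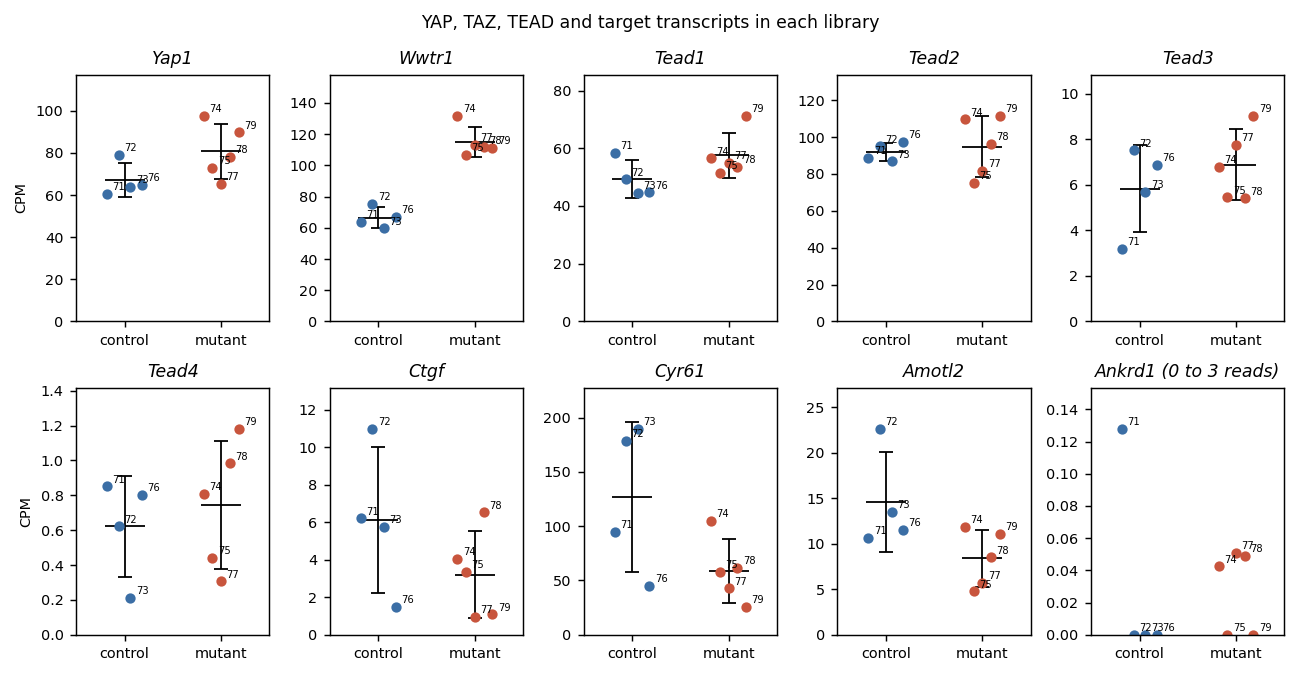
CPM of the 10 genes in each library (points, labelled with the replicate number) of 4 control and 5 mutant samples; the line and bars are the mean and SD, which are left out for *Ankrd1*. *Wwtr1* is higher in every mutant library than in any control library, and the genotypes overlap for the other genes.

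*Wwtr1* (ENSMUSG00000027803, chromosome 3, 57455649 to 57575910, minus strand), which encodes TAZ, had 63.7, 75.3, 59.6 and 67.2 CPM in control replicates 71, 72, 73 and 76. It had 132, 107, 113, 111 and 111 CPM in mutant replicates 74, 75, 77, 78 and 79. All 5 mutant values lay above all 4 control values, and the mutant libraries other than replicate 74 lay within a narrow range. The change was 1.73-fold, a log2 change of 0.79 (SE 0.11, 95% interval 0.55 to 1.03, adjusted p = 0.00121). *Wwtr1* is also among the least variable genes of the table, since 5.03% of the tested genes had an edgeR coefficient of biological variation at or below its value of 0.13. The genotypes did not overlap for 15.2% of all tested genes, and *Wwtr1* was the only one of the 9 genes among them. The summed stromal markers were 162.7, 147.1, 132.8 and 210.7 CPM in the control and 516.6, 835.1, 305.4, 325.9 and 399.3 CPM in the mutant libraries, in the same order. The sum thus also separated the genotypes, but its order within the mutant libraries differed from that of *Wwtr1*. Replicate 75 had the highest stromal sum and the lowest *Wwtr1* of the mutant libraries. Replicate 74 had the highest *Wwtr1* and the next highest stromal sum. The part of stromal cells in the *Wwtr1* change was not tested.

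The promoter window of *Wwtr1* is shown because this gene carries the change. It is the RefSeq sequence of build GRCm38.p6 at chr3:57575861-57576160, minus strand, from 250 bases before to 50 bases after the start site. The capitals mark GGAATG, the core of the site that TEAD factors bind, 136 bases before the start site; it was searched on both strands, as GGAATG or CATTCC.
Wwtr1: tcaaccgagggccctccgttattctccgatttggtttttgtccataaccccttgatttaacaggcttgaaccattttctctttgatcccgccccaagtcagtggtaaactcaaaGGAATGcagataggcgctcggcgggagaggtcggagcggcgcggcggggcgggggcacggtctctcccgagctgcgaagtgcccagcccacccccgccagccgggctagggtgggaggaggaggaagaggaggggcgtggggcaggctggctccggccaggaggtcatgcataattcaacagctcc
Of 32851 RefSeq promoter windows of this length, 14.7% hold these letters, and a match is a description of the sequence, not a site in use. The annotated start site is that of the gene model in the table.

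*Yap1* (ENSMUSG00000053110, chromosome 9, 7931999 to 8004596, minus strand), which encodes YAP, had 60.5, 79.01, 63.9 and 64.9 CPM in the control libraries, in the same order, and 97.6, 73.01, 65.3, 78.02 and 89.7 CPM in the mutant libraries. Mutant replicates 75, 77 and 78 lay among the control libraries, and replicates 74 and 79 lay above them. The log2 change was 0.27 (SE 0.14, 95% interval −0.03 to 0.56) with an adjusted p-value of 0.203. A rise of the size seen for *Wwtr1* lies outside this interval. The promoter window of *Yap1* also holds GGAATG, 141 bases before its start site.

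The relation of the effectors was compared within each library, which removes the scaling between libraries. The log2 ratio of *Wwtr1* to *Yap1* reads per kilobase was 0.24, 0.10, 0.07 and 0.22 in control replicates 71, 72, 73 and 76, which is a ratio of 1.05 to 1.18. It was 0.60, 0.72, 0.96, 0.68 and 0.48 in mutant replicates 74, 75, 77, 78 and 79, a ratio of 1.4 to 1.95. TAZ and YAP transcripts were thus near parity per length in control cells, and *Wwtr1* was ahead in every mutant library. The mean log2 ratio was 0.16 ± 0.09 in the 4 control and 0.69 ± 0.18 in the 5 mutant libraries (mean ± SD), a difference of 0.53 (exact permutation, 2-sided, p = 0.00794, below which 4 against 5 libraries cannot go, and 0.0317 adjusted over the 4 within-library measures tested).

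**Figure D2:**
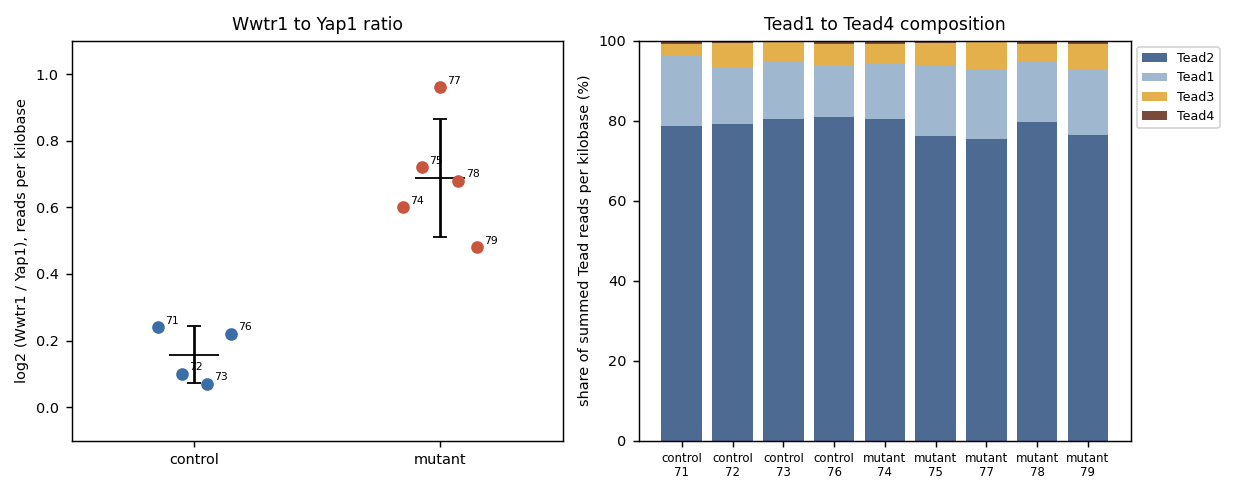
Left, log2 ratio of *Wwtr1* to *Yap1* reads per kilobase in each library (points; line and bars, mean and SD; n = 4 control and 5 mutant), with all mutant points above all control points. Right, share of each *Tead* gene in the summed reads per kilobase of *Tead1* to *Tead4* (%, bars from 0), with *Tead2* between 75.3 and 80.9% in all 9 libraries.

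The 4 *Tead* genes, whose proteins bring YAP and TAZ to DNA, differed widely in level and little between genotypes. *Tead2* had 86.9 to 97.4 CPM in control and 75.1 to 112 CPM in mutant libraries, and *Tead1* had 44.5 to 58.5 CPM and 51.5 to 71.3 CPM. *Tead3* was lower, at 3.20 to 7.52 CPM and 5.41 to 9.03 CPM. *Tead4* had 5 to 26 reads in a library, which is 0.211 to 0.852 CPM in control and 0.306 to 1.18 CPM in mutant libraries. The genotypes overlapped for each of these genes, and the mutant range contained the whole control range for *Tead2*. The log2 changes were 0.22 for *Tead1* (95% interval −0.07 to 0.51), 0.04 for *Tead2* (−0.24 to 0.33), 0.24 for *Tead3* (−0.34 to 0.82) and 0.26 for *Tead4* (−0.87 to 1.39), with adjusted p-values of 0.276, 0.852, 0.581 and 0.774. The intervals of *Tead1*, *Tead2* and *Tead3* lie within 1 log2 unit of 0, whereas that of *Tead4* does not. The value of *Tead3* was 0.04 without control replicate 71 and 0.39 without control replicate 72. The sign turned for *Tead2* without mutant replicate 74 or 79 and for *Tead4* without control replicate 73.

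Per kilobase of gene length, *Tead2* took 79.8 ± 1.07% of the summed reads of the 4 *Tead* genes in control (SD, n = 4) and 77.6 ± 2.24% in mutant cells (SD, n = 5). *Tead1* took 14.6 ± 2.15% and 16.2 ± 1.55%, *Tead3* 4.96 ± 1.49% and 5.59 ± 1.04%, and *Tead4* 0.590 ± 0.272% and 0.650 ± 0.254%. *Tead2* was thus the main *Tead* transcript in every library of both genotypes. The difference in share, mutant against control, was −2.26 percentage points for *Tead2* and 1.57 for *Tead1*. Neither passed the threshold (p = 0.119 and 0.254 by exact permutation, 2-sided). The *Tead2* share was 76.2, 75.3 and 76.4% in mutant replicates 75, 77 and 79, below the control range of 78.7 to 80.9%. It was 80.3 and 79.6% in mutant replicates 74 and 78, within that range. Without control replicate 71, which had the highest *Tead1* share of the control libraries, the *Tead1* share was 2.6 percentage points higher in mutant cells (exact permutation test, p = 0.0357). With any other library left out, the p-value of the same test was 0.171 or more. The p-values of these shares are not adjusted over the 4 within-library measures.

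Among the target genes, *Cyr61* was abundant, *Amotl2* and *Ctgf* were low, and *Ankrd1* was at the limit of counting. *Cyr61* (ENSMUSG00000028195, chromosome 3, 145646971 to 145649985, minus strand) encodes the secreted matricellular protein CCN1. It had 94.7, 179, 189.5 and 45.3 CPM in control replicates 71, 72, 73 and 76 and 105, 58.0, 42.7, 61.4 and 25.5 CPM in mutant replicates 74, 75, 77, 78 and 79. Control replicate 76 was below mutant replicates 74, 75 and 78, and mutant replicate 74 was above control replicates 71 and 76. The log2 change was −1.12 (SE 0.48, 95% interval −2.20 to −0.04) with an adjusted p-value of 0.147. Without control replicate 76 it was −1.39 (adjusted p = 0.0398), without control replicate 73 it was −0.86 (adjusted p = 0.319), and with 1 surrogate variable it was −0.73 (adjusted p = 0.380). Over the alternative fits the adjusted p-value ran from 0.0311 to 0.403.

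*Ctgf* (ENSMUSG00000019997, chromosome 10, 24595442 to 24598683, plus strand) encodes the related protein CCN2. It had 6.22, 10.98, 5.77 and 1.48 CPM in the control libraries, in the same order, and 4.05, 3.37, 0.969, 6.54 and 1.09 CPM in the mutant libraries, which is 19 to 282 reads. Control replicate 76 was again the lowest control library, and mutant replicate 78 was above control replicates 71, 73 and 76. The log2 change was −0.93 (SE 0.57, 95% interval −2.17 to 0.31, adjusted p = 0.290). It was −0.49 without control replicate 72 and −1.36 without mutant replicate 78, and it passed the threshold in no alternative fit (adjusted p from 0.117 to 0.662). Its coefficient of biological variation of 0.59 was higher than or equal to that of 95.3% of the tested genes, and that of *Cyr61*, 0.49, to that of 90.4%. *Ctgf* overlaps *Gm15270* on the opposite strand over 1667 bases, and the library kit kept no strand, so reads there cannot be told apart. In a library, 0 to 20 reads were assigned to *Gm15270*. The same limit holds for *Wwtr1* (*Gm16016*, 550 bases, 1 to 20 reads) and *Yap1* (*Gm20416*, 11167 bases, 0 to 12 reads). *Tead1*, *Tead2* and *Tead4* also overlap a gene on the opposite strand, over 764, 4 and 397 bases. The log2 ratio of *Ctgf* to *Cyr61* reads per kilobase was −4.78 ± 0.59 in the 4 control and −4.70 ± 0.82 in the 5 mutant libraries (mean ± SD), with no difference beyond the spread (2-sided exact permutation test, p = 0.881).

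*Amotl2* (ENSMUSG00000032531, chromosome 9, 102716672 to 102733418, plus strand) encodes an angiomotin family protein that binds YAP and holds it outside the nucleus, and it is itself a target of YAP. It had 10.7, 22.6, 13.5 and 11.6 CPM in the control libraries and 11.9, 4.78, 5.71, 8.51 and 11.1 CPM in the mutant libraries. Mutant replicates 74 and 79 lay among the control libraries, and the other mutant libraries lay below all of them. The log2 change was −0.79 (SE 0.30, 95% interval −1.44 to −0.15, adjusted p = 0.0871). Without mutant replicate 74 it was −0.95 (adjusted p = 0.0375), and without control replicate 72, the highest library, it was −0.50 (adjusted p = 0.304), with adjusted p-values from 0.0168 to 0.304 over the alternative fits. *Ankrd1*, a target much used in other cells, had 3, 0, 0 and 0 reads in the control and 1, 0, 1, 1 and 0 reads in the mutant libraries, and no fold change is given.

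The promoter windows of *Cyr61*, *Amotl2* and *Ankrd1* are shown because they hold TEAD core letters at genes of very different level in these cells. They are RefSeq sequences of build GRCm38.p6, 5′ to 3′ on the strand of the gene, with GGAATG or CATTCC in capitals. *Cyr61* is at chr3:145649936-145650235, minus strand, with the letters beginning 103 bases before the start site. *Amotl2* is at chr9:102717554-102717853, plus strand, with the letters 65 bases before a start site that lies 1132 bases inside the gene model of the table. *Ankrd1* is at chr19:36119795-36120094, minus strand, with matches 210 and 123 bases before the start site.
Cyr61: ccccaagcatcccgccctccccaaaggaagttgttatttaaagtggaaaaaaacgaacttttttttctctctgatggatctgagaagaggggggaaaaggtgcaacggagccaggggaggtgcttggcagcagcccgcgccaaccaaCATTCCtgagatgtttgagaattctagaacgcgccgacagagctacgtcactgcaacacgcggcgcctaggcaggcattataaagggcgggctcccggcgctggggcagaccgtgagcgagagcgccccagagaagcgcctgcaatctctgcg
Amotl2: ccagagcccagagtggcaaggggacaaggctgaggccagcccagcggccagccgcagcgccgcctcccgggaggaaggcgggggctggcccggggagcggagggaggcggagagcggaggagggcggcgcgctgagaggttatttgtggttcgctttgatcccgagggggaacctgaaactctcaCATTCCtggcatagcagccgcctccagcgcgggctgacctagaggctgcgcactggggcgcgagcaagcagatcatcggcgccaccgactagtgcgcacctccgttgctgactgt
Ankrd1: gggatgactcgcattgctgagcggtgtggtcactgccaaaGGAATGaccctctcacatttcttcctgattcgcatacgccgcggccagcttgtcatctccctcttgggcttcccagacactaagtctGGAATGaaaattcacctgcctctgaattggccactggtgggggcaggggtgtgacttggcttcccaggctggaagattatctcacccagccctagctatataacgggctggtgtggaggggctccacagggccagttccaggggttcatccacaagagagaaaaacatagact
Of the 10 genes, 7 had a window in the RefSeq table, and *Ctgf*, *Tead1* and *Tead4* had none. The letters were found in a window of 6 of these 7 genes, with *Tead2* the exception, so their presence did not separate *Cyr61*, with 562 to 4591 reads, from *Ankrd1*, with at most 3.

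*Cyr61*, *Ctgf* and *Amotl2* were set beside immediate early genes, which are transcribed within minutes of a stimulus such as serum. The 10 immediate early genes summed to 3207, 3715, 3861 and 892.4 CPM in control replicates 71, 72, 73 and 76, and to 1163, 1668, 721.6, 931.3 and 700 CPM in mutant replicates 74, 75, 77, 78 and 79. Control replicate 76 lay among the mutant libraries in this sum, as it did for *Cyr61* and *Ctgf*. Control replicate 71 also lay among the mutant libraries for *Cyr61*, and control replicates 71 and 73 did for *Ctgf*, but not in this sum. For *Amotl2*, control replicates 71 and 76 lay among the mutant libraries, and control replicates 72 and 73 lay above them. Over the 9 libraries, Pearson's r of log2 CPM with the log2 sum was 0.87 for *Cyr61*, 0.79 for *Ctgf* and 0.49 for *Amotl2*. The difference between genotypes enters each of these r values. *Ier2* (log2 change −1.63, adjusted p = 0.00431), *Fosb* (−1.62, adjusted p = 0.0339) and *Jun* (−1.14, adjusted p = 0.0488) fell and none of the 10 rose. Over all tested genes 7.02% were lower and 7.82% higher. Without control replicate 76, 6 of the 10 fell, and without control replicate 71, 72 or 73 or mutant replicate 74, 77, 78 or 79 only 1 did. Calls over all genes also changed, from 2225 with all libraries to 2279 without control replicate 76 and 3136 without mutant replicate 74. They were 1046 to 1739 without control replicate 71, 72 or 73 or mutant replicate 77, 78 or 79. The part of the immediate early response in the *Cyr61*, *Ctgf* and *Amotl2* values was not tested.

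**Figure D3:**
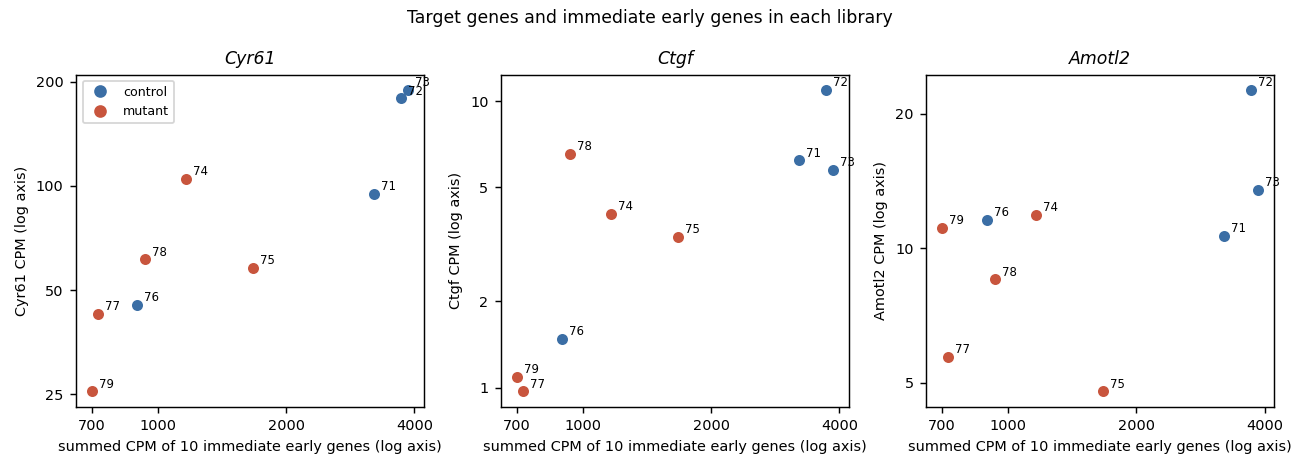
CPM of *Cyr61*, *Ctgf* and *Amotl2* against the summed CPM of 10 immediate early genes in each library (log axes; points labelled with the replicate number; blue, 4 control; red, 5 mutant). Control replicates 71, 72 and 73 lie apart at 3207 CPM or more, and control replicate 76 lies with the mutant libraries, at 1668 CPM or less.

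In control cells, the mean level per kilobase fell in the order *Cyr61* (62.7 CPM per kilobase), *Tead2* (27.1), *Wwtr1* (14.1), *Yap1* (12.7), *Tead1* (4.94), *Amotl2* (3.29), *Ctgf* (2.45), *Tead3* (1.69) and *Tead4* (0.202). The libraries overlapped between *Cyr61* and *Tead2*, between *Wwtr1* and *Yap1*, and between all neighbours from *Tead1* to *Tead3*. In mutant cells the mean levels of *Cyr61*, *Tead2* and *Wwtr1* were 28.8, 27.9 and 24.5 CPM per kilobase and overlapped, and *Yap1* followed at 15.3 without overlap with *Wwtr1*.

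Of the 7 genes of the kinase cascade that restrains YAP and TAZ, 2 rose and none fell, against 7.82% higher and 7.02% lower among all tested genes, and their median log2 change was 0.20. At an unadjusted p-value under 0.05, and under DESeq2 or limma-voom, none of the 7 fell either. *Lats1*, which encodes a kinase that phosphorylates YAP and TAZ, had 28.03, 24.8, 23.6 and 34.6 CPM in control and 32.4, 52.4, 51.9, 57.1 and 48.0 CPM in mutant libraries. Mutant replicate 74 lay just below the highest control library, replicate 76, and the other mutant libraries lay above all controls. The log2 change of *Lats1* was 0.80 (SE 0.18, adjusted p = 0.0109). *Mob1b*, which encodes a LATS coactivator, had 9.77 to 15.02 CPM in control and 15.7 to 24.9 CPM in mutant libraries. It was the only 1 of the 7 genes without overlap of the genotypes, against 15.2% of all tested genes. Its log2 change was 0.74 (SE 0.18, adjusted p = 0.0180), and it missed the threshold without control replicate 72 (0.63, adjusted p = 0.0573) or 73 (0.75, adjusted p = 0.0535).

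The other members of the cascade did not pass the threshold. Their log2 changes were −0.12 for *Stk3* and 0.19 for *Stk4*, which encode MST2 and MST1, 0.33 for the scaffold *Sav1*, 0.20 for *Mob1a* and −0.13 for *Lats2*. The 95% interval of *Lats2*, −0.72 to 0.47 (adjusted p = 0.793), spans both signs, so no direction is read from it. The difference between *Lats2* and its paralog *Lats1* was not tested.

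Among 21 upstream and associated genes, *Fat4* and *Map4k4* rose, none fell, and the median log2 change was 0.11. These 2 of 21 are a smaller share than the 14.8% called over all tested genes, and 1 of the 21, *Taok2*, fell under limma-voom. *Fat4*, an atypical cadherin, had 11.1 to 20.1 CPM in control and 25.6 to 38.0 CPM in mutant libraries, a log2 change of 0.85 (SE 0.20, adjusted p = 0.0131). *Map4k4*, a kinase that can act on LATS beside the MST kinases, had 22.1 to 25.8 CPM and 28.9 to 43.1 CPM, a log2 change of 0.59 (SE 0.15, adjusted p = 0.0204), and it missed the threshold without control replicate 72 (adjusted p = 0.0586) or 73 (adjusted p = 0.0657). The genotypes did not overlap for these 2 of the 21 genes, against 15.2% of all tested genes. *Fat4* is expressed in kidney stroma as well, and stromal markers were higher in the mutant libraries, so the values of *Fat4* stand beside that difference, whose part was not tested. *Nf2*, the tumour suppressor merlin, had a log2 change of −0.11 (95% interval −0.51 to 0.28), and the YAP-binding angiomotins *Amot* and *Amotl1* had 0.45 and 0.27, with adjusted p-values of 0.712, 0.179 and 0.232.

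Vestigial-like proteins compete with YAP and TAZ for TEAD. *Vgll4* had 78.5 ± 22.5 CPM in control (SD, n = 4) and 52.0 ± 20.5 CPM in mutant cells (SD, n = 5), a log2 change of −0.59 (SE 0.25) at an adjusted p-value of 0.123, and the genotypes overlapped. It passed the threshold without mutant replicate 74. *Vgll1*, *Vgll2* and *Vgll3* did not pass the filter on low counts.

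A further list held 18 genes commonly used as YAP and TAZ targets, of which 17 were tested and *Foxf2* was not analysed here. It includes *Lats2* and *Ptpn14*, which are also in the lists of the pathway. Of the 17 genes, 3 rose, 1 fell and 13 did not pass, with a median log2 change of 0.31. Over all tested genes 14.8% were called, with 7.82% higher and 7.02% lower, and nothing particular to this list is read from its count. *F3*, which encodes tissue factor, had 22.2, 23.8, 21.9 and 25.6 CPM in control and 41.0, 47.0, 54.7, 38.6 and 40.5 CPM in mutant libraries, a log2 change of 0.92 (SE 0.14, adjusted p = 0.00172). *Gadd45a*, a stress-induced gene of growth arrest, had 8.18 to 10.7 CPM and 12.6 to 24.6 CPM, a log2 change of 0.95 (SE 0.21, adjusted p = 0.0116). The genotypes did not overlap for 4 of the 17 genes, *F3*, *Gadd45a*, *Asap1* and *Nt5e*, against 15.2% of all tested genes. Both *F3* and *Gadd45a* are known to respond to stress signals besides YAP and TAZ.

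*Asap1*, which encodes an Arf GTPase-activating protein, rose by less, with 72.9 to 80.8 CPM in control and 92.3 to 98.9 CPM in mutant libraries and a log2 change of 0.32 (SE 0.10, adjusted p = 0.0437). *Nt5e*, which encodes the ecto-enzyme CD73, fell from 32 to 84 reads in control to 3 to 25 reads in mutant libraries, to 0.25 of the control level (SE 0.56 on the log2 scale, adjusted p = 0.0309). Neither call was stable when libraries were left out. *Asap1* missed the threshold without control replicate 71, 72 or 73 or mutant replicate 75, 77, 78 or 79 (adjusted p from 0.0638 to 0.117), and *Nt5e* missed it without control replicate 71, 72 or 73 or mutant replicate 75 or 77 (adjusted p from 0.0507 to 0.0959). *F3* and *Gadd45a* passed in all 17 alternative fits.

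**Figure D4:**
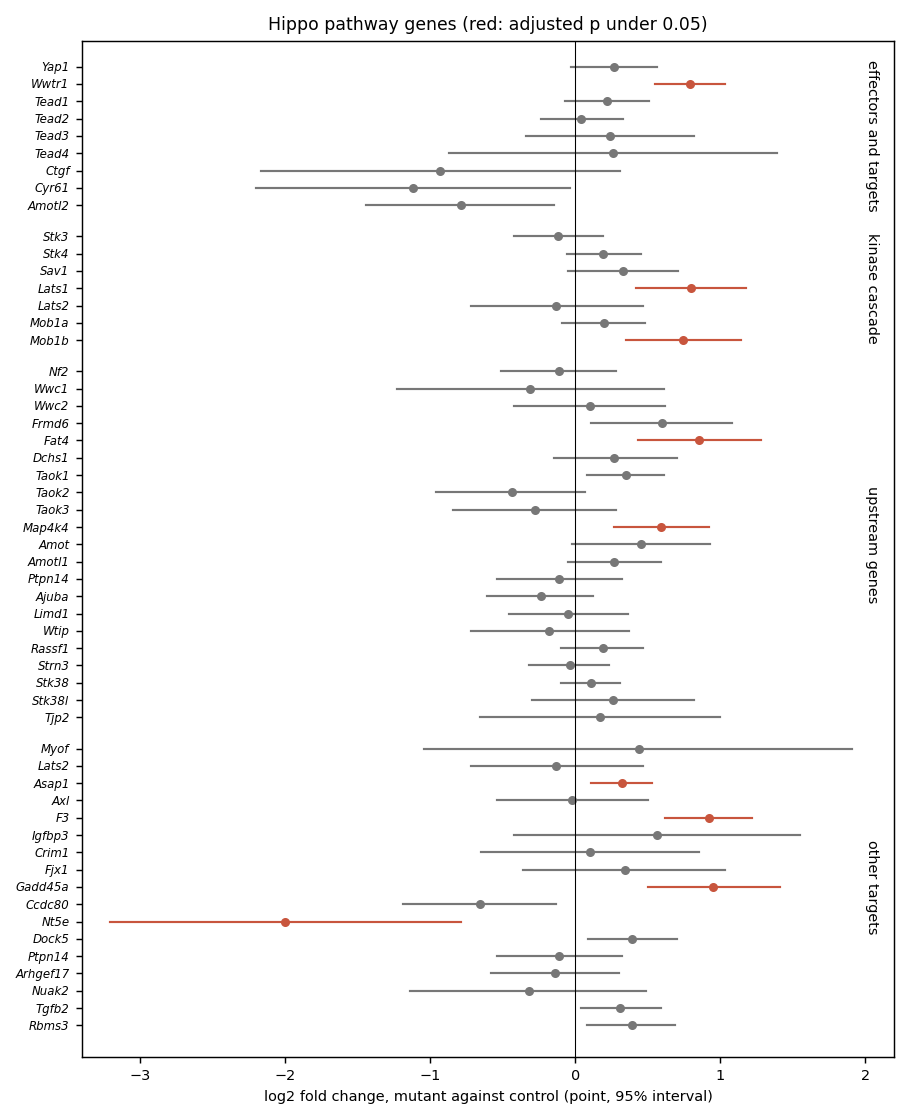
Log2 change, mutant against control, with its 95% interval for the tested effectors and targets, kinase cascade, upstream genes and other targets (red, adjusted p under 0.05, edgeR). *Wwtr1*, *Lats1*, *Mob1b*, *Fat4*, *Map4k4*, *Asap1*, *F3* and *Gadd45a* lie above 0 in red, and *Nt5e* lies below 0 in red.

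The genes most like the effectors across the 9 libraries were found among 9349 tested genes whose mean reached 10 CPM, by Pearson's r of log2 CPM. For *Wwtr1* they were *Pamr1* (r = 0.986), *Rab43* (r = 0.978) and *Purb* (r = 0.976), each of which rose in mutant cells, with log2 changes of 1.02, 0.94 and 0.49 and adjusted p-values of 0.000715, 0.00425 and 0.0126. For *Yap1* they were *Eif4b* (r = 0.965), *Prrc2b* (r = 0.963) and *Serinc5* (r = 0.957), with log2 changes of 0.25, 0.26 and 0.43 that did not pass the threshold. The difference between genotypes enters each r for *Wwtr1*.

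For *Cyr61* the most similar genes were *Sapcd2* (r = 0.949), *Nfkbiz* (r = 0.946) and *Ccnd1* (r = 0.938). *Ccnd1*, which encodes cyclin D1, fell in mutant cells from 67.2 ± 34.8 CPM (SD, n = 4) to 28.7 ± 13.0 CPM (SD, n = 5), a log2 change of −1.23 at an adjusted p-value of 0.0438. For *Ctgf* they were *Car14* (r = 0.910), *Prkcdbp* (r = 0.883) and *Acin1* (r = 0.873). Each r is over 9 libraries that share their scaling and is the highest of 9349, and these names are a description.

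**Figure D5:**
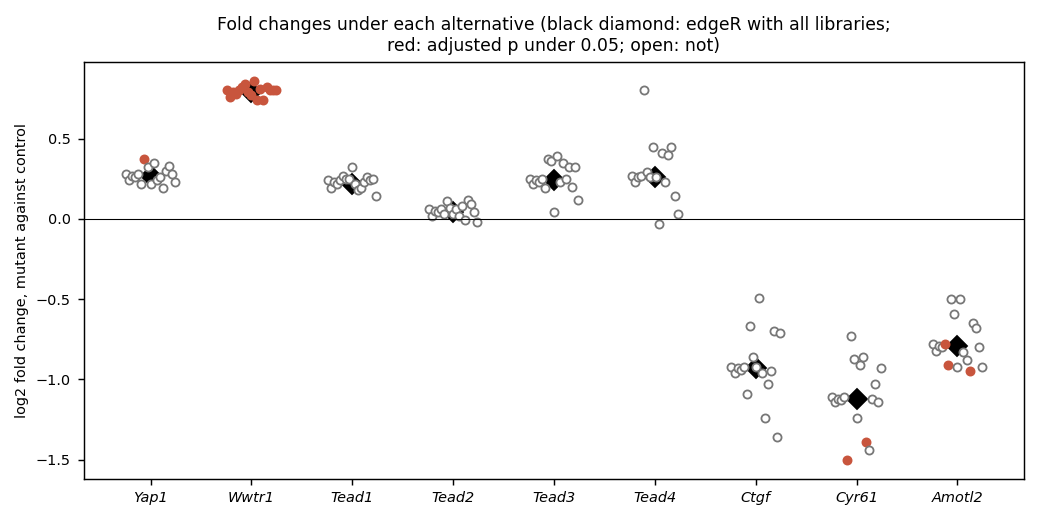
Log2 change of the 9 tested genes with all libraries (black diamond, edgeR) and under each alternative fit (circles; red, adjusted p under 0.05; open, not). *Wwtr1* stays between 0.74 and 0.86 and is red throughout, and *Ctgf*, *Cyr61* and *Amotl2* stay below 0 and are mostly open.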

How the data were processed

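RNA was sequenced from SIX2 progenitors of 4 control and 5 mutant samples. According to the labels, cDNA was amplified from few cells, poly(A) selected and made into libraries without strand. The authors counted reads per gene; the submitters' processing notes name STAR, DESeq2 and mm10, without versions, and the counting tool is not given in the sources used here. Gene coordinates match GRCm38. The deposited table also holds FPKM, which the authors computed from counts and gene length (an alternative for the within-library measures), and the authors' mean signal per genotype, log2 fold changes and p-values, which were not used. GeneLength gave reads per kilobase.

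Counts were fitted in R 4.3.3 with edgeR 4.0.16 (filterByExpr, TMM, robust quasi-likelihood test; 14990 of 26858 genes) and adjusted by Benjamini-Hochberg over all tested genes, with a threshold of 0.05. Each log2 change was divided by the square root of its F to give the standard error (SE). Correlations used log2 CPM with a prior count of 2. At 21040536 counts or more per library the spread between libraries, not counting error, sets the precision of all but the lowest genes. No fold was computed for genes that did not pass the filter on low counts. Permutation tests were exact and 2-sided, on the absolute difference of means. Scripts were tested on simulated data. Alternatives were RLE or upper-quartile factors, DESeq2 1.42.0, other filters on low counts, limma-voom (limma 3.58.1), 1 surrogate variable (sva 3.50.0), a Y-linked covariate, other thresholds and leaving out each library. The genes named were the 10 genes, *Uqcrq*, the cascade, genes of other lists past the threshold (at most 6 in each direction) and the 3 most similar genes of 4 members. *Nf2*, *Amot*, *Amotl1*, *Vgll4*, *Taok2*, *Pdgfrb*, *Six2*, *Cited1*, *Crym* and *Pax2* were added with their values known. The members and lists were chosen with earlier results of these data known.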

Additional observations from a re-analysis of the deposited data

Results flagged for a closer look

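Of 30 groups of libraries tested over the genes, within-library measures and summed lists, 2 held a library farther from the rest than a limit that chance passes in about 1 of 20 groups, or 1.5 of 30. Mutant replicate 74 was high for *Wwtr1*, at 132 CPM against 107 to 113 CPM in the other mutant libraries, and the log2 change between genotypes was 0.74 with that library left out. Mutant replicate 79 was high for *Tead1*, at 71.3 CPM against 51.5 to 56.6 CPM, and the log2 change between genotypes was 0.14 with that library left out.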

How the results depend on the processing

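No paired analysis was possible because the genotypes share no replicate number. *Wwtr1* passed the threshold of 0.05 in all 17 alternative fits and fell short only of the added log2 limit of 1. Of the 9 tested genes, 1 passed in the fit reported, 2 under DESeq2, 3 under limma-voom, 2 with 1 surrogate variable (*Wwtr1* and *Yap1*, the latter at 0.37, adjusted p = 0.0123), 3 at the unadjusted p-value, 0 with the log2 limit and 1 to 2 with a library left out. The kinase cascade went from 2 to 3 (limma-voom, *Sav1* added), 0 (limit) and 1 to 2 with a library left out. The upstream genes went from 2 to 4 (DESeq2), 5 (limma-voom), 4 (unadjusted), 0 (limit) and 1 to 4. The TEAD cofactors went from 0 to 1 (limma-voom and unadjusted) and 0 to 1. The other targets went from 4 to 7 (DESeq2 and limma-voom), 8 (unadjusted), 1 (limit) and 2 to 5. The immediate early genes went from 3 to 5 (DESeq2 and limma-voom), 6 (unadjusted), 1 (no filter, surrogate variable, Y-linked covariate) and 1 to 6. The stromal markers went from 7 to 9 (DESeq2, unadjusted, and limma-voom, where *Pdgfrb* was lower), 5 (no filter) and, with a library left out, 4 (without control replicate 73) to 8. With a library left out, the *Ctgf* to *Cyr61* log2 ratio differed by −0.22 to 0.34, the *Tead1* share by 0.927 to 2.6 percentage points, and the log2 fold change was −0.02 to 0.12 for *Tead2* and −0.03 to 0.45 for *Tead4*. Over all genes, 2225 passed in the fit reported, 3184 under DESeq2, 4858 under limma-voom and 1046 (without control replicate 73) to 3136 (without mutant replicate 74) with a library left out. The cause of these changes was not tested. Depth limits *Tead4* and *Ankrd1*, with at most 26 and 3 reads.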
